A study of Mus musculus with 11 samples.

Results

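The RNA exosome subunits are the 10 genes Exosc1 to Exosc10, taken by symbol and not by any measured value. Earlier results of these data were known when the set was chosen. All 10 were listed in both deposited tables, among 13121 genes for soleus and 12366 for quadriceps, and all 10 passed the filter on low values in each muscle. The study profiled hindlimb muscle of mice aged 2.5 months by RNA sequencing in 11 libraries. The Myc-labelled animals carried a doxycycline-inducible Myc system and were given doxycycline overnight, then sampled 12 hours after its removal. They gave 4 libraries of soleus, a postural muscle rich in slow fibres, and 2 of quadriceps, which is mostly fast. Age-matched animals served as controls, with 3 soleus and 2 quadriceps libraries. The labels give neither the genotype nor the doxycycline exposure of the controls, nor the promoter or cell type that drives the transgene, and nothing says that libraries came from separate animals, so p-values measure the spread between these libraries, which may be technical. Levels below are normalised read counts, the unit of the authors' tables, and a positive log2 change means a higher level in Myc-labelled muscle.

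The exosome is the main 3' to 5' RNA-degrading machine of eukaryotic cells. Its core is a barrel: a ring of proteins related to bacterial RNase PH (Exosc4 to Exosc9), topped by a cap of RNA-binding proteins (Exosc1, Exosc2 and Exosc3). In mammals the ring has lost its own catalysis and threads RNA to attached nucleases: Exosc10, the nuclear and nucleolar enzyme, and Dis3 or its cytoplasmic relative Dis3l. In the nucleolus the complex trims the 5.8S ribosomal RNA precursor and clears processing by-products, in the nucleoplasm it removes short-lived transcripts, and in the cytoplasm it degrades messenger RNA from the 3' end. In humans, recessive variants in EXOSC3, EXOSC8 and EXOSC9 cause disorders of cerebellum and motor neurons with muscle weakness, and EXOSC9 and EXOSC10 are the PM/Scl autoantigens of myositis overlapping with scleroderma.

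Promoter sequences are shown for 3 subunits because they bear on a named question of a Myc experiment, whether the canonical Myc-Max site CACGTG lies just before the gene. They were read from a RefSeq table of build GRCm38.p6, which held 8 of the 10 genes, all but Exosc4 and Exosc9. The window was the 250 bases before the listed start, first entry of each gene, and only stretches outside annotated exons are printed, 5' to 3'. Capitals mark CACGTG and the CCAAT box, which reads ATTGG on the other strand. Exosc5 and Exosc2 were among the genes that rose in soleus, and Exosc10, which did not pass the test there, holds neither motif. Exosc6, which also rose in soleus, had neither motif in its window. Whether a motif goes with a change was not tested. The Exosc5 stretch is chr7:25658982-25659152, plus strand, the Exosc2 stretch is chr2:31670465-31670714, plus strand, and the Exosc10 stretch is chr4:148558169-148558418, plus strand.
Exosc5: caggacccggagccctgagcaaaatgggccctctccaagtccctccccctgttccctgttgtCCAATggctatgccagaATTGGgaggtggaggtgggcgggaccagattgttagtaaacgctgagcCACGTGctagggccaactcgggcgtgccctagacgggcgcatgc
Exosc2: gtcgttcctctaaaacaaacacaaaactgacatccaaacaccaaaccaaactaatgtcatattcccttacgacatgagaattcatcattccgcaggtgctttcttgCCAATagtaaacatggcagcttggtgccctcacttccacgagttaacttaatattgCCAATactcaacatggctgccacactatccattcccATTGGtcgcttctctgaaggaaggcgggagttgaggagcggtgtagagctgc
Exosc10: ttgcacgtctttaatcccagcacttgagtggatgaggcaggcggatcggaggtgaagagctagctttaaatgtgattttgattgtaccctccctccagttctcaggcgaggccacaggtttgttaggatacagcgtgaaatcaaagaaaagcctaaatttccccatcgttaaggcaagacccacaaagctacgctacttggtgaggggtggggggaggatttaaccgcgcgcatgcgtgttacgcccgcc
CACGTG was found in 1 of the 8 members, Exosc5, from 44 to 39 bases before the start, and in 8.68% of the 10138 genes tested in soleus that had a promoter entry. CCAAT, on either strand, was in 3 of the 8 (Exosc1, Exosc2 and Exosc5) against 36.1% of those genes. The related site CACGCG or CGCGTG was in 0 of the 8 against 14.7%, and CGGAAG or CTTCCG, the core of ETS-family sites, in 3 of the 8 (Exosc3, Exosc6 and Exosc8) against 24.9%. These are letter matches in a short window and say nothing of occupancy.

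As a check of the labels, the Myc row itself was not higher in Myc-labelled libraries. It stood at 26.3, 31.0, 28.8 and 27.7 in Myc-labelled soleus and 30.04, 54.3 and 28.2 in control soleus, and at 86.4 and 33.6 in Myc-labelled quadriceps against 113.7 and 55.7 in control quadriceps (limma, adjusted p = 0.69 and 0.93). Every direction below therefore rests on the labels. Estimated depth was 11.1 to 14.9 M reads in soleus and 14.2 to 18.4 M in quadriceps. All 10 skeletal muscle fibre markers were detected in both muscles, with sums of 1142000 to 1287000 in Myc-labelled soleus, all below the 1329000 to 1427000 of control soleus. Slow fibre genes summed to 516400 to 655500 in Myc-labelled soleus and 549100 to 636200 in control soleus, but to 2061 to 4108 in Myc-labelled quadriceps and 26610 to 195200 in control quadriceps, where both controls lay above both Myc-labelled libraries. All 10 tendon markers were measured in soleus, with summed levels of 2347 to 7965 in Myc-labelled and 7355 to 9599 in control libraries. The median log2 level of these markers relative to controls was -2.02 and -1.34 in Myc-labelled replicates 3 and 4 and -0.11 and -0.14 in replicates 1 and 2. The 10 fibroblast markers stood at -0.84 and -0.56 in replicates 3 and 4 against -0.01 and 0.11 in replicates 1 and 2, and summed to 12000 to 27740 in Myc-labelled and 23380 to 29110 in control soleus. The part of these differences in the results was not tested, and soleus calls are also given without replicates 3 and 4, an alternative added after seeing the data. In bulk tissue, fewer cells of a type and less RNA per cell cannot be told apart.

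In soleus, where the comparison asks which exosome transcripts differ after Myc induction, 4 of the 10 subunit genes rose and 0 fell: Exosc2, Exosc6, Exosc1 and Exosc5. They rose 2.82-fold, 2.30-fold, 1.94-fold and 1.73-fold on the log2(value + 1) scale. Across all 12745 genes tested, 7.06% rose and 2.23% fell by the same rule, an adjusted p under 0.05 (9.29% in all). The other 6 had log2 changes of 0.23 to 0.61 without passing, so all 10 were above 0, where 45.6% of all genes were. That direction was not particular to the subunits. Of the 85 related RNA decay genes tested, described below, 62 were above 0, among them 14 of 15 nuclear exosome cofactors. The median log2 change of the 10 was 0.50, beside -0.03 over all genes tested.

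**Figure D1:**
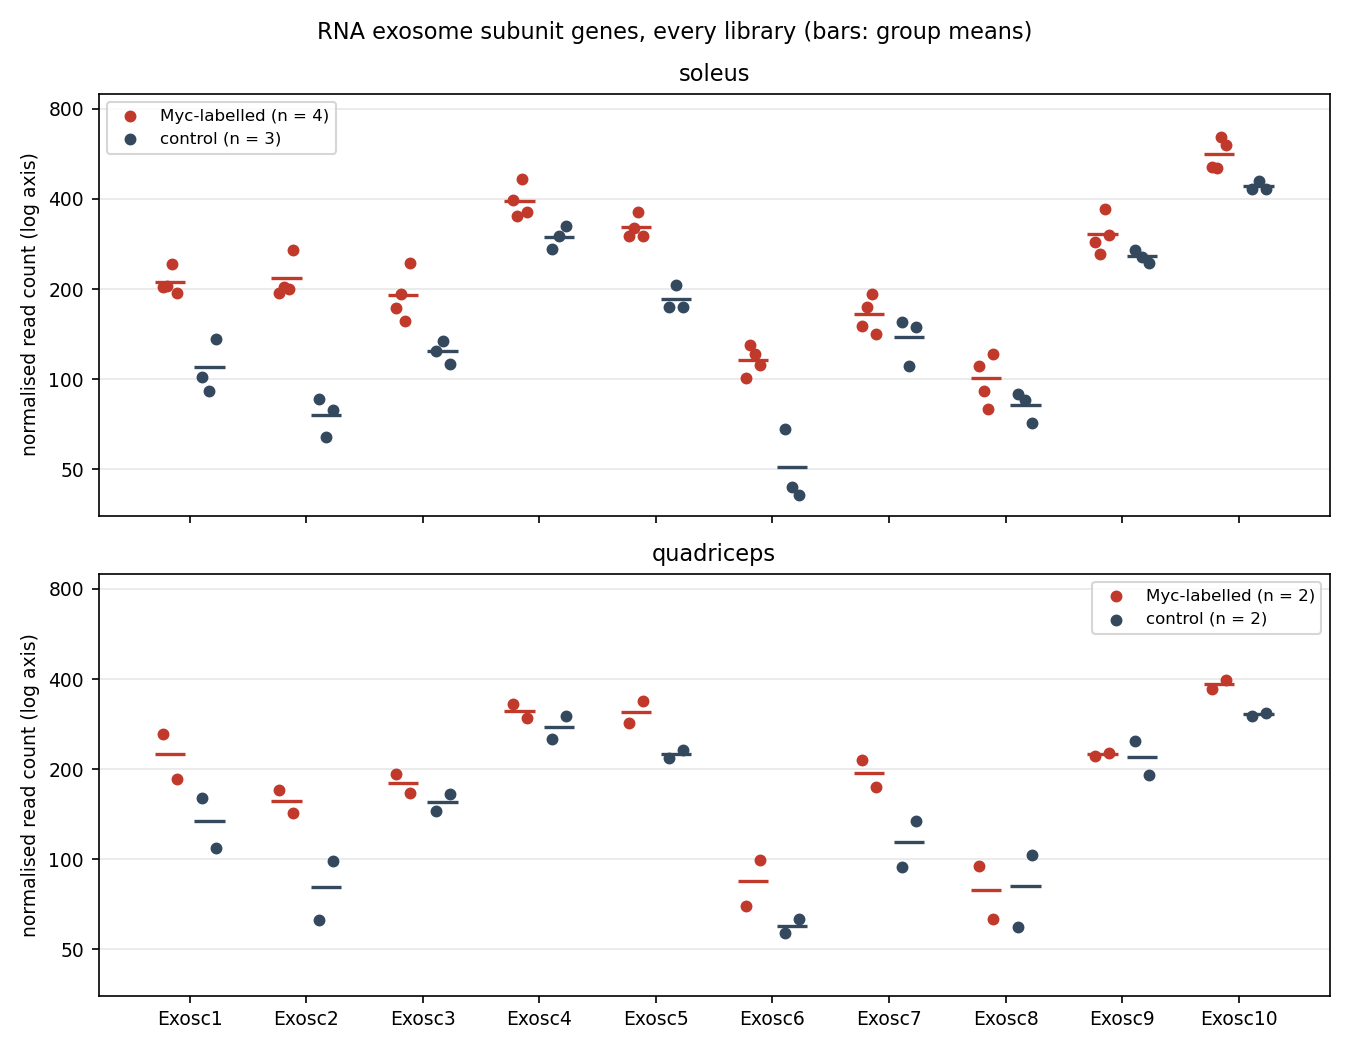
Normalised read count of each exosome subunit gene on a log axis, with 1 point per library and bars at group means, for soleus (Myc-labelled n = 4, control n = 3) and quadriceps (n = 2 each). In soleus, every Myc-labelled point lies above every control point for 7 genes, with the widest gap for Exosc2, and the groups overlap for Exosc7, Exosc8 and Exosc9.

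Among the cap proteins, Exosc2 (also called Rrp4), which carries S1 and KH RNA-binding domains, had 193.7, 203.4, 200.3 and 270.2 in Myc-labelled soleus libraries against 85.7, 64.0 and 78.7 in controls. Every Myc-labelled library was thus far above every control. Its log2 change was 1.495 (SE 0.21, 95% interval 1.04 to 1.95; limma, adjusted p = 0.00019), larger than that of 99.0% of the genes tested. Exosc1 (Csl4) had 203.5, 204.2, 241.8 and 194.0 in Myc-labelled libraries and 101.6, 91.2 and 136.2 in controls, a log2 change of 0.95 (SE 0.20; limma, adjusted p = 0.0056) with no overlap. Exosc3 (Rrp40), the third cap protein, ranged from 156.6 to 244.4 in Myc-labelled libraries and from 112.7 to 133.9 in controls. Those groups did not overlap either, yet the change of 0.61 (95% interval 0.18 to 1.04) did not pass (limma, adjusted p = 0.076).

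The 6 ring genes split. Exosc6 (Mtr3) had 101.2, 129.7, 120.9 and 111.8 in Myc-labelled soleus and 68.0, 43.7 and 41.1 in control soleus, a log2 change of 1.20 (SE 0.27, 95% interval 0.63 to 1.77; limma, adjusted p = 0.0085). All 1326 bases of its annotated exon lie, on the same strand, within exons of the alanyl-tRNA synthetase gene Aars, so the split of reads between the genes is uncertain. Aars itself averaged 2380 ± 174 in Myc-labelled soleus (SD, n = 4) and 2368 ± 50.2 in control soleus (SD, n = 3), a log2 change of 0.00. On the opposite strand, 19.8% of Exosc4's exon bases overlap Oplah and 10.8% of Exosc9's overlap Ccna2. So do 12.4% of those of Exosc2 with Gm13427 and 5.66% of those of Exosc5 with Tmem91, genes listed in neither deposited table. Smaller overlaps were those of Exosc3 with Dcaf10 (4%) and Exosc8 with Supt20 (2.05%). Whether counting used strand is not given in the sources used here. Exosc5 (Rrp46) had 301.8, 318.9, 362.7 and 300.9 in Myc-labelled libraries and 174.1, 206.6 and 173.7 in controls. Its change of 0.79 (SE 0.16) passed (limma, adjusted p = 0.0032), with all 4 Myc-labelled libraries above all controls. Exosc4 (Rrp41) ranged from 351.6 to 466.3 in Myc-labelled libraries and from 272.1 to 325.2 in controls, without overlap, and its change of 0.39 did not pass (limma, adjusted p = 0.11).

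For the other ring genes the groups overlapped. Exosc7 (Rrp42) had 150.9, 174.1, 192.3 and 141.5 in Myc-labelled soleus and 154.6, 110.6 and 149.1 in control soleus, a change of 0.26 (95% interval -0.18 to 0.70; limma, adjusted p = 0.51) that was 0.11 without control replicate 2. Exosc8 (Rrp43) ranged from 79.4 to 121.7 in Myc-labelled libraries and from 71.6 to 89.2 in controls (change 0.28, 95% interval -0.25 to 0.81). Exosc9 (Rrp45) ranged from 260.9 to 368.9 in Myc-labelled libraries and from 244.6 to 269.2 in controls (change 0.23, 95% interval -0.10 to 0.57). The intervals of Exosc7, Exosc8 and Exosc9 include 0 and reach up to 0.57 to 0.81, so a modest rise of each remains possible.

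None of the nucleases passed. Exosc10 (Rrp6) stood at 512.0, 508.1, 642.5 and 603.7 in Myc-labelled soleus and 432.1, 459.8 and 430.8 in control soleus. No library of either group crossed into the other, and the change of 0.35 (95% interval 0.09 to 0.62) did not pass (limma, adjusted p = 0.096). Dis3, the processive nuclease at the base of the nuclear barrel, had 258.8, 270.2, 313.4 and 227.2 in Myc-labelled libraries and 158.2, 128.4 and 258.6 in controls. Control replicate 3 lay among the Myc-labelled values, and the change of 0.61 (95% interval 0.15 to 1.07) did not pass (limma, adjusted p = 0.099). Dis3l, the cytoplasmic nuclease, averaged 588.5 ± 50.8 in Myc-labelled soleus (SD, n = 4) and 557.3 ± 16.3 in control soleus (SD, n = 3), a change of 0.07 (95% interval -0.17 to 0.32).

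**Figure D2:**
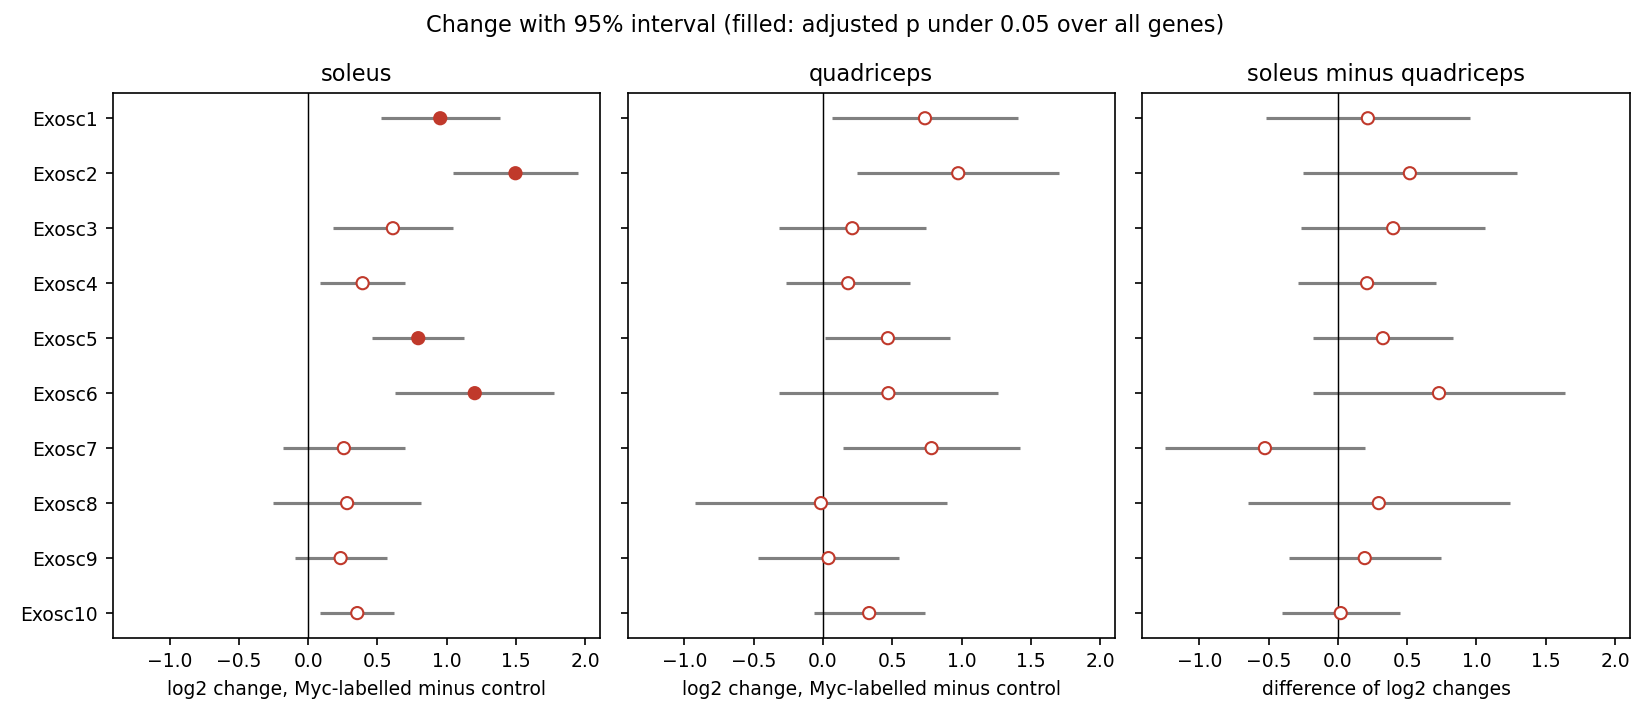
Log2 change of each exosome subunit gene, Myc-labelled minus control, in soleus and quadriceps, and the soleus minus quadriceps difference of those changes; points are estimates, lines are 95% intervals, and filled points pass an adjusted p under 0.05 over all genes. Only Exosc1, Exosc2, Exosc5 and Exosc6 in soleus are filled, and every interval of the difference includes 0.

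In all, 7 subunit genes did not overlap between soleus groups, all higher in Myc-labelled libraries, where 12.7% of all genes tested did so. At an unadjusted p under 0.05 the same number, 7, was higher, against 12.9% of all genes. Averaged over the 10 genes, the log2 level relative to the control mean was 0.58, 0.61, 0.73 and 0.71 in Myc-labelled replicates 1 to 4 and 0.07, -0.05 and -0.01 in control replicates 1 to 3. All 4 Myc-labelled libraries were above all 3 controls, and replicates 3 and 4 were higher than replicates 1 and 2. Without Myc-labelled replicates 3 and 4, 2 subunit genes passed, Exosc2 (log2 change 1.38; limma, adjusted p = 0.0100) and Exosc5 (0.75; 0.044). Over all genes, 481 of the 12603 tested without these replicates rose. Exosc1 and Exosc6 then had almost the same changes, 0.91 and 1.19, with wider errors (SE 0.25 and 0.34; limma, adjusted p = 0.061 and 0.073). In that fit Exosc9 stood at 0.09 and Exosc10 at 0.21, against 0.23 and 0.35 with all libraries. Exosc10 passed only when libraries were scaled to equal totals (change 0.40; limma, adjusted p = 0.043).

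Levels can be compared between subunits only per transcript length. Per kb of the longest principal GENCODE transcript, the Myc-labelled soleus levels spanned 77.6 (Exosc8) to 220 (Exosc4), a 2.83-fold range, and the control soleus levels spanned 38.4 (Exosc6) to 166 (Exosc4), a 4.34-fold range. Exosc6 stood at 87.4 ± 9.22 per kb in Myc-labelled soleus (SD, n = 4) and 38.4 ± 11.2 in control soleus (SD, n = 3), and Exosc2 at 129 ± 21.2 in Myc-labelled and 45.2 ± 6.56 in control soleus. By this length these genes, which had the largest changes of the 10, were the lowest in control soleus. The control level is also part of the change, so a low control level and a large change are not independent. The SD of the 10 log2 levels per kb was 0.53 in Myc-labelled soleus and 0.77 in control soleus. In quadriceps it was 0.66 in Myc-labelled and 0.68 in control libraries. Both the spread and the order depend on the length used. Over the union of all annotated exons the soleus range was 8.71-fold in Myc-labelled and 8.12-fold in control libraries, with SDs of 1.04 and 1.08, so the narrower spread in Myc-labelled soleus was not seen with that length. By that length, Exosc8 was lowest and Exosc4 highest in both soleus groups, with Exosc6 at rank 5 and Exosc2 at rank 8 in control soleus. No test was made of these descriptions.

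**Figure D3:**
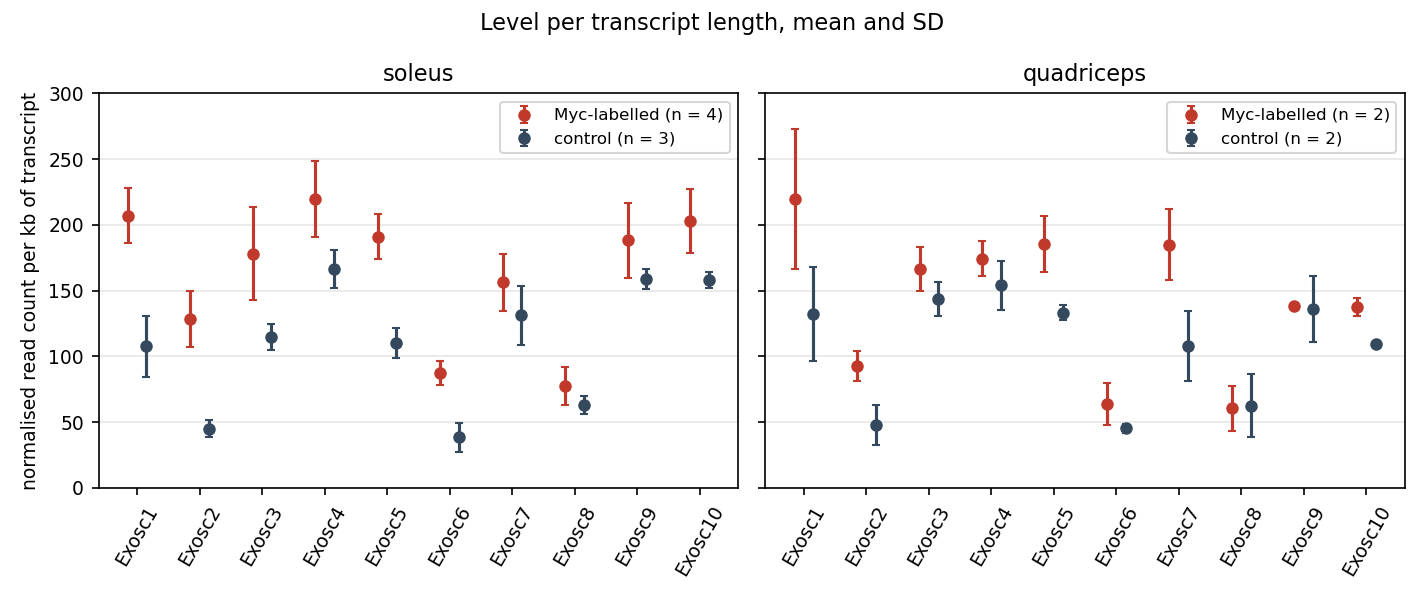
Mean normalised read count per kb of transcript for each subunit, with SD over libraries, in Myc-labelled and control soleus (n = 4 and 3) and quadriceps (n = 2 each). Exosc2 lies at 129 per kb in Myc-labelled and 45.2 in control soleus, and Exosc6 at 87.4 in Myc-labelled and 38.4 in control soleus, the lowest control levels by this length.

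The ring is built from 3 pairs of neighbours, Exosc4 with Exosc9, Exosc5 with Exosc8, and Exosc6 with Exosc7, and the ratio of the transcripts of a pair is given for each library. The log2 ratio of Exosc6 to Exosc7 was -0.57, -0.42, -0.67 and -0.34 in Myc-labelled soleus and -1.17, -1.32 and -1.83 in control soleus, so the groups did not overlap. For Exosc5 over Exosc8 it ranged from 1.30 to 2.18 in Myc-labelled soleus and from 0.96 to 1.27 in control soleus, again without overlap. For Exosc4 over Exosc9 it ranged from 0.26 to 0.47 in Myc-labelled soleus and from 0.02 to 0.41 in control soleus, and the groups overlapped. In quadriceps all 3 ratios overlapped between groups. Exosc6 over Exosc7 there was -1.61 and -0.80 in Myc-labelled libraries and -0.72 and -1.07 in controls. These ratios were looked at after the single genes had been seen and carry no test. Both pairs without overlap set a gene that had passed (Exosc5 or Exosc6) against one that had not, so the ratios add nothing independent of the single genes.

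**Figure D4:**
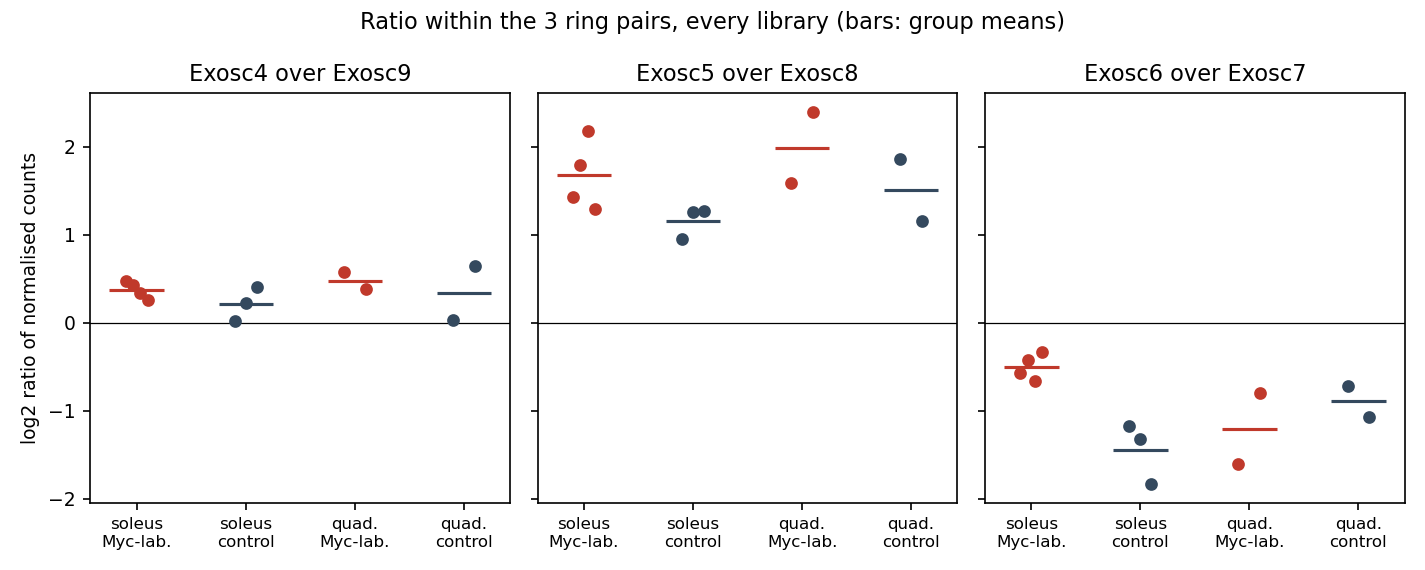
Log2 ratio of normalised counts within the 3 ring pairs, with 1 point per library and bars at group means, for Myc-labelled and control soleus (n = 4 and 3) and quadriceps (n = 2 each). Exosc6 over Exosc7 is -0.67 to -0.34 in Myc-labelled soleus and -1.83 to -1.17 in control soleus, and the quadriceps groups overlap for each pair.

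In quadriceps, 0 of the 10 subunit genes passed by limma, where 0.00815% of the 12270 genes tested rose by that rule, 1 gene in all, and limma-voom also called 0 of the 10. At an unadjusted p under 0.05 there were 4 higher subunit genes, Exosc2, Exosc7, Exosc1 and Exosc5, against 3.97% of all genes. With 2 libraries a group the intervals were wide, and the control libraries were also the ones with the higher slow fibre sums given above, whose part was not tested. Exosc2 had 169.7 and 143.1 in Myc-labelled quadriceps and 62.7 and 98.9 in control quadriceps, a log2 change of 0.98 (95% interval 0.25 to 1.70; limma, adjusted p = 0.61). The cap gene Exosc1 had 262.2 and 185.5 in Myc-labelled libraries and 160.1 and 108.9 in controls, a change of 0.74 (95% interval 0.07 to 1.404) that was 0.49 without Myc-labelled replicate 1 and 0.46 without control replicate 2. Both cap genes were thus higher in each Myc-labelled library than in either control.

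Exosc7 was one of the 4 in quadriceps, unlike in soleus. It had 214.9 and 174.7 in Myc-labelled quadriceps and 94.0 and 133.8 in control quadriceps, a change of 0.78 (95% interval 0.15 to 1.42; limma, adjusted p = 0.66). Exosc5 had 285.9 and 336.5 in Myc-labelled libraries and 217.0 and 231.1 in controls (change 0.47, 95% interval 0.02 to 0.92). Exosc10, the nuclear nuclease, had 370.2 and 397.7 against 300.6 and 308.4 in control quadriceps (change 0.33, 95% interval -0.07 to 0.73), close to its soleus value of 0.35. Exosc6 had 69.9 and 99.7 in Myc-labelled libraries and 56.9 and 63.2 in controls (change 0.47, 95% interval -0.32 to 1.26; 0.72 without Myc-labelled replicate 1 and 0.22 without replicate 2), and Exosc3 166.8 to 192.3 against 145.1 to 164.6 in controls. Exosc4, Exosc8 and Exosc9 overlapped between groups. Exosc8 had 94.6 and 63.2 in Myc-labelled quadriceps and 59.2 and 103.1 in control quadriceps, a change of -0.01 with a 95% interval of -0.92 to 0.89.

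Of the 10, 7 did not overlap between quadriceps groups, all higher in Myc-labelled libraries, where 18.3% of all genes tested did so. In this muscle 9 of the 10 changes were above 0, against 45.8% of all genes and 62 of the 84 related RNA decay genes tested. The median log2 change of the 10 was 0.40, beside -0.03 over all genes. The average log2 level of the 10 genes relative to the control mean was 0.47 and 0.36 in the Myc-labelled libraries and -0.09 and 0.09 in the controls. Fitting all 11 libraries together still gave 0 calls among the 10, where 0.643% of the 11971 genes tested rose in quadriceps. With so few genes called, that count says nothing particular about the subunits.

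The change did not differ detectably between muscles for any subunit: 0 of 10 passed (limma over all 11 libraries), with 0% of all 11971 genes passing and 0 subunits at an unadjusted p under 0.05, where 3.18% of all genes were and 2.59% were with a larger change in soleus. Exosc6 changed by 0.73 more in soleus than in quadriceps (95% interval -0.18 to 1.64), and Exosc2 by 0.52 more (-0.25 to 1.29). For Exosc7 the difference ran the other way, at -0.53 (-1.25 to 0.20). With 1 library left out these differences ran from 0.48 to 0.98, from 0.19 to 0.84 and from -0.78 to -0.27, the nearest to 0 being without quadriceps Myc-labelled replicate 1 for Exosc6, control replicate 2 for Exosc2 and control replicate 1 for Exosc7. For Exosc10 it was 0.02 (-0.40 to 0.45). Intervals of this width leave differences of more than 1 log2 unit possible for Exosc2, Exosc3, Exosc6, Exosc7 and Exosc8. The tables were normalised separately, so levels were not compared across muscles, and the libraries of the muscles were treated as independent. Treating same-numbered libraries of a condition as a block also gave 0 calls among the subunits.

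The machinery around the exosome was described from 87 genes in 7 lists of cofactors and other RNA decay enzymes. In soleus 85 were tested, 5 rose and 0 fell, a share close to the 7.06% of all genes that rose, so that count says nothing particular about these lists. Of the 85, 62 changes were above 0, against 45.6% of all genes. At an unadjusted p under 0.05, 19 were higher, against 12.9% of all genes, and 1 was lower. Nuclear cofactors gave 3 of the 5, of 15 tested, with a median log2 change of 0.25. These 3 were Utp18, Wdr74 and Nvl. Utp18, a small-subunit processome protein whose yeast relative docks the exosome helicase Mtr4, had 290.1, 236.1, 312.0 and 277.1 in Myc-labelled soleus and 161.7, 138.7 and 66.9 in control soleus (log2 change 1.27, SE 0.26; limma, adjusted p = 0.0053). Wdr74, which binds the ATPase Nvl, had 208.3, 195.9, 282.1 and 226.6 in Myc-labelled libraries and 84.8, 119.3 and 146.7 in controls (0.98, SE 0.22; limma, adjusted p = 0.0079). Nvl, an ATPase that works on the nucleolar Mtr4 complex, had 540.3, 527.4, 612.6 and 681.9 in Myc-labelled libraries and 369.3, 348.2 and 307.6 in controls (0.78, SE 0.13; limma, adjusted p = 0.00095). None of the 3 overlapped between groups, which held, in the higher direction, for 12.7% of all genes. Nop53, a ribosome assembly factor that also works with Mtr4, averaged 1400 ± 96.2 in Myc-labelled soleus (SD, n = 4) and 1289 ± 54.5 in control soleus (SD, n = 3), a change of 0.12 (95% interval -0.09 to 0.32).

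The other nuclear cofactors did not pass. Mtrex, the Mtr4 helicase itself, had a log2 change of 0.40 (95% interval 0.14 to 0.65; limma, adjusted p = 0.054), and Zc3h18, which links the cap-binding complex to decay, 0.46 (adjusted p = 0.052 by limma). The NEXT complex partners of Mtr4, Rbm7 and Zcchc8, both stood at 0.01, and the TRAMP components Tent4b and Zcchc7 at 0.11 and 0.26. Tent4a stood at 0.25, Pabpn1 at 0.12 and the polyadenylated-RNA adaptor Zfc3h1 at -0.38 (95% interval -0.96 to 0.21). Direct partners of Exosc10 stood at 0.25 (C1d) and 0.05 (Mphosph6). Of the 5 cytoplasmic SKI genes, which feed messenger RNA into the exosome, 0 passed by limma and 1, Wdr61, was under an unadjusted p of 0.05 (change 0.45; adjusted p = 0.14). Ttc37, the SKI scaffold, stood at 0.38 (95% interval -0.16 to 0.91).

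In the lists outside the exosome pathway 2 genes rose. Of 16 exosome-independent 3' exonucleases 1 rose, the mitochondrial poly(A) ribonuclease Pde12, at 224.5 ± 27.8 in Myc-labelled soleus (SD, n = 4) and 138.6 ± 22.8 in control soleus (SD, n = 3; log2 change 0.70; limma, adjusted p = 0.029). That call was lost without Myc-labelled replicate 2 or 3, or control replicate 2 or 3 (limma, adjusted p = 0.061 to 0.11). The exonuclease gene Rexo1 had a change of 0.44 (limma, adjusted p = 0.056). Of 19 genes of decapping and 5' decay 1 rose, Lsm2, part of both the cytoplasmic Lsm decay ring and the ring on U6 RNA, with 292.0, 253.6, 172.7 and 344.4 in Myc-labelled libraries and 116.6, 116.4 and 143.2 in controls (1.04, SE 0.22; limma, adjusted p = 0.0058). Lsm4, another subunit of both rings, stood at 0.31 (limma, adjusted p = 0.15). Deadenylation and nonsense-mediated decay had 0 calls by limma, in 18 and 10 genes. At an unadjusted p under 0.05, 2 deadenylation genes were higher and 1 was lower, and 2 nonsense-mediated decay genes were higher. Over all genes, 12.9% were higher by that rule and 1118 of 12745 were lower. Those with the smallest p were Btg1 (-0.46), Cnot11 (0.30), Smg5 (0.32) and Smg9 (0.60), with limma adjusted p = 0.10, 0.18, 0.066 and 0.11. Medians of the related lists ran from 0.03 for deadenylation to 0.34 for the catalytic partners, beside 0.50 for the subunits. The catalytic partners are only 2 genes, Dis3 (0.61) and Dis3l (0.07). Without Myc-labelled replicates 3 and 4 there were 2 calls among the 85, Nvl (0.65) and Lsm2 (1.12). In that fit 481 of the 12603 genes tested rose, so the count says nothing particular about these lists. Utp18, Wdr74 and Pde12 then stood at 1.19, 0.82 and 0.64 without passing.

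In quadriceps 0 of 84 such genes passed by limma or limma-voom, and 4 were higher at an unadjusted p under 0.05: Utp18 (log2 change 0.67), Lsm2 (0.64), Lsm4 (0.40) and Nvl (0.38). That share is near the 3.97% of all genes higher by that rule. Utp18 had 157.4 and 144.1 in Myc-labelled quadriceps and 85.9 and 103.1 in control quadriceps, and Nvl 498.8 and 492.5 against 389.9 and 369.0 in controls. Wdr74 had 163.5 and 169.7 against 150.9 and 108.9 in controls (change 0.38, 95% interval -0.23 to 0.98). All 3 were higher in both Myc-labelled quadriceps libraries than in either control, as were 28 of the 84 genes and 18.3% of all genes tested. Dis3 stood at 0.33 and Dis3l at 0.06.

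**Figure D5:**
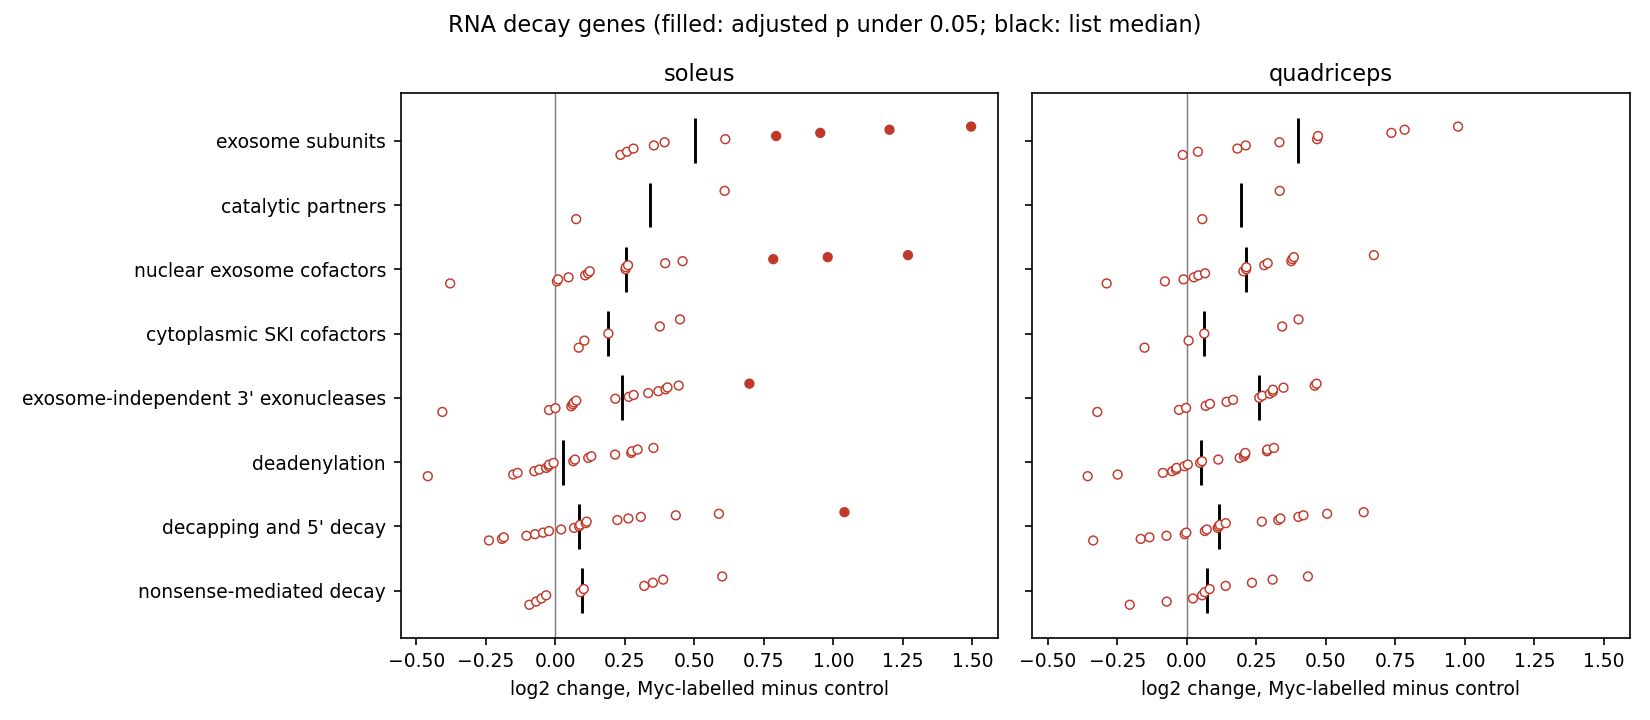
Log2 change, Myc-labelled minus control, of the exosome subunits and of 7 lists of related RNA decay genes in soleus and quadriceps; each point is a gene, filled points pass an adjusted p under 0.05 over all genes, and black bars are list medians. In soleus 4 subunits, 3 nuclear cofactors, Pde12 and Lsm2 are filled, and in quadriceps none of these genes is.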

How the data were processed

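The authors deposited 1 table per muscle, each holding a normalised signal for every gene. The values behave as read counts that the authors scaled by a single factor for each library. Tools listed per the submitters' processing notes, without role or order, are DESeq2, Partek and STAR 2.7.8a, and both mm10 and mm39 are listed as builds. From the spacing of low values, a read corresponds to 0.837 to 1.17 units in soleus libraries and 0.831 to 1.16 in quadriceps libraries. Only 89.8% to 92.9% of values under 60 fell on that grid (tolerance 0.02 reads), too few for a count test. The submitters' rule for which genes are listed is not given in the sources used here.

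Groups came from the titles. limma 3.58.1 in R 4.3.3 (statmod 1.5.0) was applied to log2(value + 1), with trend and robust options on, to genes reaching 10 in 3 or more libraries (soleus) or in 2 or more (quadriceps). Fold changes of low genes are understated on this scale. The muscles were fitted separately, and a joint fit of all 11 libraries gave the difference between them. Adjusted p-values are Benjamini-Hochberg over all genes tested, and intervals are 95%. The tests were tried on simulated data. No pair of replicates was alike enough to be the same library. Transcript lengths and overlaps are from GENCODE vM21.

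Alternatives were 2 other scalings, other pseudocounts and filters, no robust moderation, limma-voom, a joint fit, a replicate block and each library left out. The subunits, lists and alternatives were chosen with earlier results of these data known. The genes named were all 10 subunits, Dis3 and Dis3l, called genes of the lists, the 2 of each list with the smallest p in soleus, Myc, and genes that share exons with a subunit. Other genes were named after their values were seen: the remaining nuclear cofactors and, in quadriceps, those under an unadjusted p of 0.05. Marker lists were used for muscle, slow fibre, tendon and fibroblast genes; the other lists are in the closing section.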

Additional observations from a re-analysis of the deposited data

Results flagged for a closer look

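Among 17 sets of 4 Myc-labelled soleus values examined for a library far from the others, 1 stood out, where chance gives about 1 in 20. Exosc2 was 270.2 in replicate 4 and 193.7 to 203.4 in the other Myc-labelled libraries, a gap of 0.853 of the whole range on the log2(value + 1) scale. Without replicate 4 its soleus log2 change was 1.39, and it still passed (limma, adjusted p = 0.0017).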

How the results depend on the processing

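The soleus count of 4 subunits stayed at 4 with each single library left out and under every other alternative but 2. Scaling to equal totals gave 5, Exosc10 being added (0.40; limma, adjusted p = 0.0429), and leaving out both Myc-labelled replicates 3 and 4, added after seeing the data, gave 2. The cause was not tested in the first case, and the second has fewer libraries. In quadriceps, and for the difference between muscles, limma called 0 subunits under every alternative, limma-voom included. Of the other decay genes in soleus, 5 were called, against 10 with equal totals, 2 without replicates 3 and 4, and 4 to 7 with 1 library left out. Over all genes in soleus, 900 rose and 284 fell, against 1079 and 181 with equal totals, 819 and 362 with upper-quartile scaling, and 481 and 143 without replicates 3 and 4.

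With 1 library left out, soleus changes ran from 0.11 to 0.35 for Exosc7, 0.18 to 0.39 for Exosc8 and 0.14 to 0.30 for Exosc9, and quadriceps changes from 0.11 to 0.31 for Exosc3 and 0.06 to 0.30 for Exosc4. Signs near 0 turned in a few cases. In quadriceps the Exosc8 change, -0.01, was 0.046 with equal totals and -0.41 to 0.38 with 1 library left out, and the Exosc9 change, 0.04, was -0.15 to 0.23. For the soleus minus quadriceps difference, leaving out 1 library gave -0.059 to 0.49 for Exosc1, -0.10 to 0.69 for Exosc8 and -0.042 to 0.073 for Exosc10, and leaving out soleus Myc-labelled replicates 3 and 4 gave Exosc10 -0.12. The cause was not tested.

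With the replicate number as a block, 4 subunits and 6 other decay genes were called in soleus and 0 in quadriceps, and Exosc10's difference between muscles was -0.14. No label says that a number marks a shared animal. Deviations of same-numbered Myc-labelled and control libraries correlated at 0.00, 0.08 and 0.14 in soleus, where not every library correlated best with its own number. In quadriceps the value was 0.14 for both pairs, which are equal by construction with 2 libraries a group. Between the muscles, same-numbered libraries correlated at -0.03 and 0.10 (Myc-labelled) and 0.10 and 0.16 (control).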

Other observations

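Other cell type markers were summed in each library. In soleus, all 5 erythroid genes summed to 3277 to 7523 in Myc-labelled and 7444 to 7704 in control libraries, 9 of 10 macrophage genes to 568.9 to 1262 in Myc-labelled and 956 to 1384 in control libraries, and all 10 Schwann cell genes to 2358 to 5600 in Myc-labelled and 2033 to 2962 in control libraries. All 10 endothelial genes summed to 8174 to 9625 in Myc-labelled and 9190 to 10960 in control soleus, and all 8 adipocyte genes to 3353 to 6615 in Myc-labelled and 3803 to 6331 in control soleus. Fast fibre genes summed to 426300 to 685600 in Myc-labelled and 652300 to 687100 in control soleus, and 6 of 7 satellite cell genes to 816.7 to 1066 in Myc-labelled and 719.6 to 1033 in control soleus. In quadriceps all 7 satellite cell genes summed to 1268 to 1320 in Myc-labelled and 965.5 to 1053 in control libraries, and tendon genes to 418.6 to 3929 in Myc-labelled and 1649 to 4113 in control libraries. Their part in the results was not tested.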
